A study of Homo sapiens with 6 samples.

Results

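The genes described here were 10 alpha and beta tubulin isotypes, chosen by gene symbol: TUBA1A, TUBA1B and TUBA1C for alpha tubulin, and TUBB, TUBB2A, TUBB2B, TUBB3, TUBB4A, TUBB4B and TUBB6 for beta tubulin. All 10 were among the 16655 genes of the table, and all 10 passed the filter on low counts. HEK-293T is a line from human embryonic kidney with the large T antigen of SV40. RNA-seq libraries of total RNA were made from cells transfected by Lipofectamine 3000 with either the empty GFP vector pEGFP-C1 (GFP, labelled control, n = 3) or the same vector with squid reflectin A1 fused to GFP (RfA1, labelled RfA1 expression, n = 3), and trypsin was used to collect the cells 24 h later. Each library is bulk RNA of a whole culture, with no sort for transfected cells described, so fewer cells that express a gene and less of its RNA per cell cannot be told apart. The labels do not say that same-group libraries come from separate cultures, and p-values then measure only the spread between these libraries, which may be technical. The transcript of squid RfA1 was not analysed here, so the group labels were not checked against it. Totals were 10272306 to 11566284 estimated counts per library, of which the 10 isotypes took 0.582% to 0.631%.

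All 7 markers of the line that were looked up were present in every library, with VIM at 578 to 724 TPM (the length-corrected unit of the table, in which every library has the same total) and PAX2, the lowest, at 3.43 to 6.16 TPM. Of 6 markers of blood, liver, epidermal, endothelial and heart cells, KRT5 reached 1.84 TPM and the others at most 0.62 TPM. A trend with transcript GC content set the libraries apart. Genes of at least 57.5% GC stood 0.18 to 0.29 higher on the log2 scale, relative to genes of at most 42.3%, in GFP replicates 2 and 3 and in RfA1 replicate 2, while in GFP replicate 1 and RfA1 replicates 1 and 3 they stood lower, by -0.085, -0.25 and -0.33. RfA1 replicate 2 therefore sat with GFP replicates 2 and 3 in this respect, and the isotype values are also given without it. The RfA1 libraries that are then left, at -0.25 and -0.33, both lie below every GFP library in this trend. In values without RfA1 replicate 2, RfA1 and the GC trend therefore cannot be told apart.

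Microtubules are polymers of heterodimers of 1 alpha and 1 beta tubulin, and each subunit is encoded by several genes, the isotypes. Newly made tubulin is folded with the help of prefoldin and the chaperonin CCT, and is joined into dimers by the tubulin cofactors. Cells also hold tubulin synthesis in check: when free dimers are plentiful, TTC5 binds the first amino acids of nascent tubulin on the ribosome and recruits the CCR4-NOT deadenylase, and the tubulin mRNA is degraded. The isotypes are most alike in the folded body and differ mostly in the C-terminal tail, which extends from the microtubule surface and carries glutamylation, glycylation and, on alpha tubulin, the tyrosine that is removed and put back by dedicated enzymes. The study asked how RfA1 relates to the cytoskeleton of human cells, and the comparison with GFP cells shows whether the mRNA of the building blocks of microtubules differed.

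The start of the coding sequence is shown first, because it encodes what the autoregulatory machinery reads as the chain emerges from the ribosome. The sequences are the first 12 bases of each reading frame in GENCODE release 29 transcripts, written in the direction of transcription, with the codons after the start codon in capitals.
TUBA1A: atgCGTGAGTGC
TUBA1B: atgCGTGAGTGC
TUBA1C: atgCGTGAGTGC
TUBB: atgAGGGAAATC
TUBB4B: atgAGGGAAATC
TUBB3: atgAGGGAGATC
TUBB6: atgAGGGAGATC
TUBB2A: atgCGCGAGATC
TUBB2B: atgCGTGAGATC
TUBB4A: atgCGGGAGATC
The 3 alpha genes had the same 12 bases, and an intron separates the start codon from the rest in each of them. Among the 7 beta genes there were several spellings, in different codons, of the same amino acids. TUBB and TUBB4B shared a spelling, TUBB3 and TUBB6 shared another, and TUBB2A and TUBB2B differed from each other.

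The end of the coding sequence is shown because it encodes the tail, where isotypes differ most, and because it bears on which reads can be told apart. Each line holds the last 60 coding bases of a beta gene, stop codon included, on GRCh38. Capitals mark the bases that differ from TUBB in an alignment of the whole coding sequences.
TUBB (chr6:30724338-30724397, plus strand): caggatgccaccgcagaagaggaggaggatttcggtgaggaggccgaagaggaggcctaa
TUBB4B (chr9:137243497-137243556, plus strand): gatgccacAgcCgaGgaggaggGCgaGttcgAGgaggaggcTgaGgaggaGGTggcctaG
TUBB2A (chr6:3153863-3153922, minus strand): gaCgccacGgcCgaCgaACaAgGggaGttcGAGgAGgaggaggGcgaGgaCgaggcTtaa
TUBB2B (chr6:3224751-3224810, minus strand): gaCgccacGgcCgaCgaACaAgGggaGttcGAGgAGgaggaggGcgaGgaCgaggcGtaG
TUBB6 (chr18:12326071-12326130, plus strand): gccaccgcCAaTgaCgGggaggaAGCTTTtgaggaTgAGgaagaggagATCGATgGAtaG
TUBB3 (chr16:89935745-89935804, plus strand): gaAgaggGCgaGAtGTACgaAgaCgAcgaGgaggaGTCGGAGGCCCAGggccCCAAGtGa
Against TUBB, 14 bases differed in TUBB4B and in TUBB4A, 18 in TUBB2A, 19 in TUBB2B, 23 in TUBB6 and 32 in TUBB3, the isotype best known from neurons. TUBB2A and TUBB2B lie on the same strand of chromosome 6, at chr6:3153669-3157526 and chr6:3224261-3231730, and over the whole coding sequence 1313 of 1338 aligned bases were the same, or 98.1%. The 3 alpha genes lie on chromosome 12 and were 95.9% to 97.2% identical in pairs. The other pairs of beta genes were 80.9% to 90.1% identical.

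Shared sequence and the deposited counts were set side by side. In windows of 100 bases along the transcript, 56.4% of those of TUBB2A and 46.2% of those of TUBB2B occurred exactly in another gene of the tubulin family, mostly in each other, and 37.2% of those of TUBA1B, 18.3% of TUBA1A and 11.5% of TUBA1C did so. For TUBB it was 5.1%, and all of that was shared with the pseudogene TUBBP1. TUBB4A and TUBB6 had 0 such windows. Estimated counts that are not whole can arise where reads that fit several genes are divided between them, and the counting tool is not given in the sources used here. The counts of TUBA1A, TUBA1B, TUBA1C, TUBB2A and TUBB2B were whole in 0 of 6 libraries (within 0.005), those of TUBB3 in 3, of TUBB4A and TUBB4B in 4, and of TUBB and TUBB6 in 6 of 6. The match is partial. TUBB4A shared 0 windows of 100 bases and 6.0% of its windows of 50 bases, and its counts were not whole in 2 libraries. TUBB shared 18.2% of its windows of 50 bases and was whole in every library. The division within the alpha genes and between TUBB2A and TUBB2B is therefore an estimate, and the sum of the alpha genes, the sum of the beta genes and the sum of TUBB2A and TUBB2B are given beside the single genes. TUBA1A (chr12:49184796-49189324, minus strand) also overlaps the start of TUBA1C (chr12:49188736-49274603, plus strand) in the annotation, and whether the libraries kept the strand is not given in the sources used here.

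**Figure D1:**
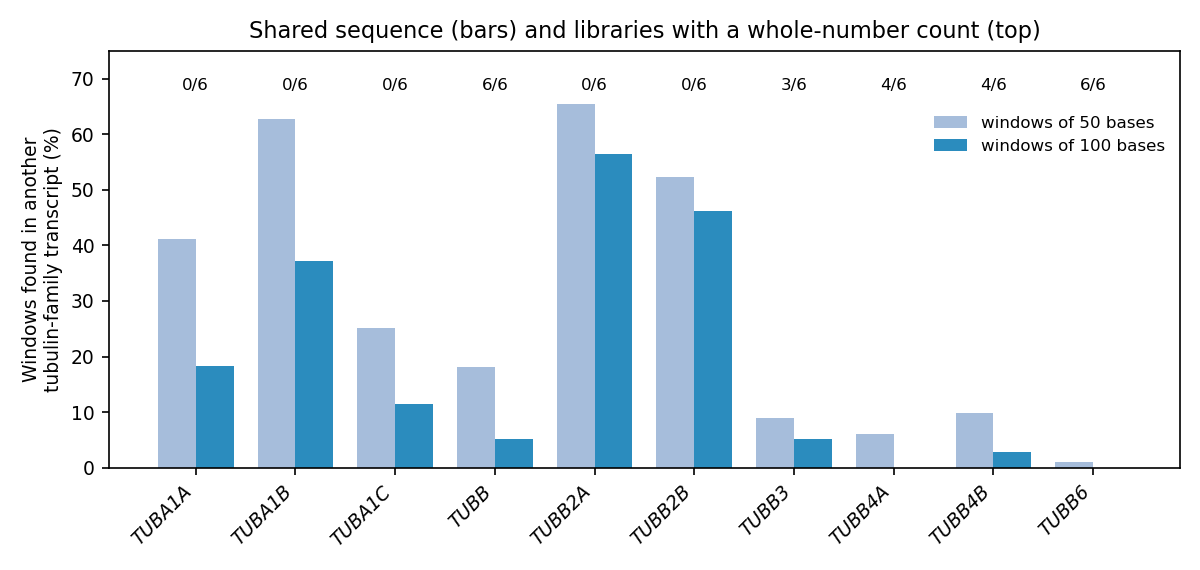
Bars give, for each of the 10 isotypes (horizontal axis), the percentage of windows of 50 or 100 bases of its transcript that occur exactly in another transcript of the tubulin family (vertical axis). The fractions along the top count the libraries, of 6, in which its estimated count was a whole number. The genes with tall bars, TUBB2A, TUBB2B and TUBA1B, have 0. TUBB6, with 0.0% of its 100-base windows and 1.0% of its 50-base windows shared, has 6. TUBB4A, with 0.0% and 6.0% shared, has 4.

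Alpha tubulin mRNA in these cells came mostly from 1 gene, TUBA1B, the widely expressed alpha isotype. Levels were compared between genes in TPM. TUBA1B stood at 2428, 2451 and 2347 TPM in GFP replicates 1, 2 and 3, rank 67 of all genes by mean. TUBA1C stood at 429, 407 and 369 TPM and TUBA1A, an alpha isotype best known from developing neurons, at 86.7, 86.4 and 90.4 TPM. The order of the 3 genes was the same in 6 of 6 libraries, and TUBA1B made up 83.1% ± 0.578 of the alpha TPM, TUBA1C 13.8% ± 0.708 and TUBA1A 3.03% ± 0.162 (SD, n = 3).

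Beta tubulin was divided among more genes. TUBB, the main beta isotype of dividing cells, stood at 1145, 1174 and 1171 TPM in the GFP libraries, and TUBB4B, a widely expressed isotype that is also a component of cilia, at 630, 692 and 684 TPM. TUBB was above TUBB4B in 6 of 6 libraries. TUBB made up 53.1% ± 1.49 of the beta TPM and TUBB4B 30.5% ± 0.279 (SD, n = 3). By estimated counts, which are not corrected for length, TUBB took 64.5% and TUBB4B 21.4% of the beta tubulin counts. The lengths implied by the deposited counts and FPKM were 2255 bases for TUBB and 1303 for TUBB4B.

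The remaining 5 beta isotypes were lower. TUBB2B stood at 132, 168 and 156 TPM in GFP replicates 1, 2 and 3, and TUBB2A at 74.9, 94.9 and 99.2 TPM, so that TUBB2B was above TUBB2A in 6 of 6 libraries. TUBB6, which is expressed in many tissues, stood at 67.5, 83.4 and 81.5 TPM. TUBB4A, an isotype of the brain, stood at 29.5, 33.1 and 31.1 TPM and TUBB3 at 9.75, 9.96 and 10.2 TPM. In GFP cells TUBB2B accounted for 6.92% ± 0.565 of the beta TPM, TUBB2A for 4.08% ± 0.443, TUBB6 for 3.53% ± 0.257, TUBB4A for 1.42% ± 0.0382 and TUBB3 for 0.454% ± 0.0125 (SD, n = 3).

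From the highest to the lowest mean in GFP cells the order was TUBA1B, TUBB, TUBB4B, TUBA1C, TUBB2B, TUBB2A, TUBA1A, TUBB6, TUBB4A and TUBB3. TUBB2A and TUBA1A were not separated, with means that differed 1.02-fold, overlapping GFP values and TUBB2A the higher of the pair in 3 of 6 libraries. TUBA1A and TUBB6 differed 1.13-fold, with TUBA1A the higher in 5 of 6 libraries. Every other neighbour in the order was higher than the next in 6 of 6 libraries, by 1.66-fold (TUBB4B over TUBA1C) to 3.14-fold (TUBB4A over TUBB3). The other alpha and beta tubulin rows of the table held little. The 10 isotypes made up 99.6% of the TPM of all alpha tubulin rows and 99.4% of that of all beta tubulin rows. The highest of the other rows were TUBB8B at 11.6 to 13.5 TPM and TUBA4A at 6.32 to 8.85 TPM.

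**Figure D2:**
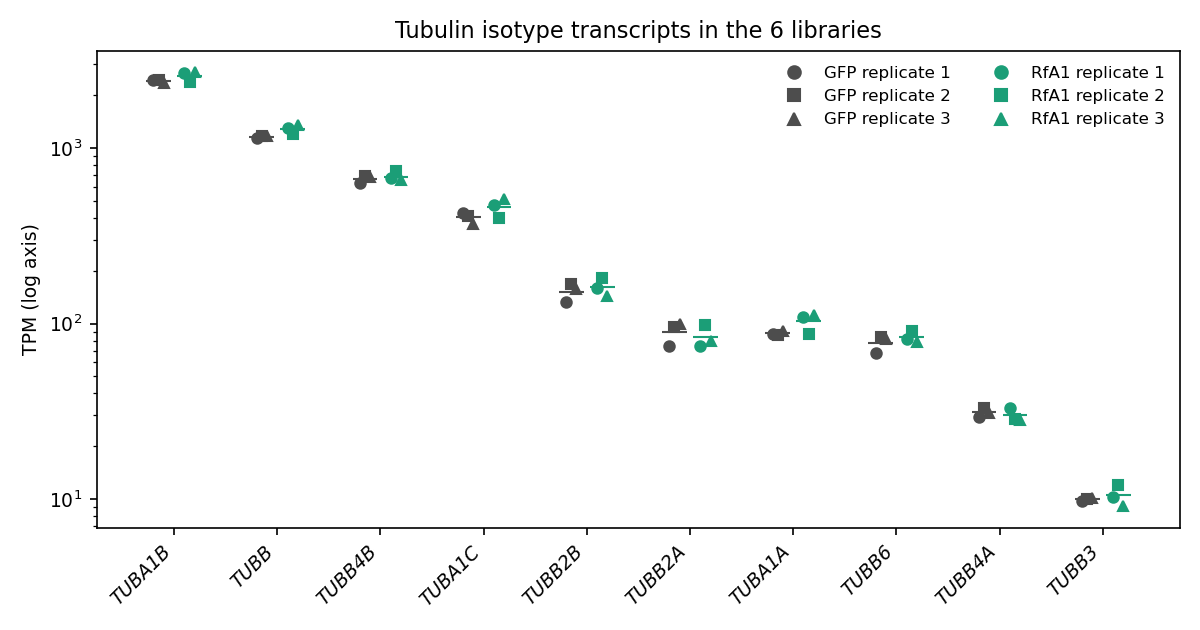
Each point is the level of an isotype (horizontal axis, in order of the GFP mean) in 1 library, in TPM on a log axis, with GFP in grey and RfA1 in green, the marker giving the replicate number and the short line the group mean. The order from TUBA1B (GFP mean 2410 TPM) down to TUBB3 (9.95 TPM) holds in both groups except among TUBB2A, TUBA1A and TUBB6, and GFP and RfA1 points lie close together for every isotype.

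None of the 10 isotypes passed an adjusted p of 0.05 between RfA1 and GFP cells by edgeR's quasi-likelihood test. An unadjusted p under 0.05 was reached by 0 of them, and DESeq2 gave 0 and 0 as well. Over all 13002 genes tested, edgeR called 10 genes (0.0769%) by adjusted p and 13.9% had an unadjusted p under 0.05, so that 0 of 10 by adjusted p is near the background. With the replicate number as a block it was again 0 of 10, against 4.81% of all genes. CPM, the counts scaled to library size by TMM, did not separate RfA1 from GFP libraries for any of the 10 isotypes, against 17.9% of all genes tested. The log2 fold changes ran from -0.15 to 0.16, with 7 of 10 above 0 and a median of 0.035, against -0.0024 over all genes. With 3 libraries a group the 95% intervals reached from 0.721-fold (TUBB2A) to 1.27-fold (TUBA1A).

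TUBA1B stood at 2371, 2523 and 2342 CPM in GFP replicates 1 to 3 and at 2497, 2435 and 2498 CPM in RfA1 replicates 1 to 3. The groups overlapped, and the log2 fold change of RfA1 over GFP was 0.04 ± 0.069 (SE), with an adjusted p of 0.811 by edgeR and a 95% interval of 0.925-fold to 1.14-fold. TUBA1C stood at 519.5, 512 and 458 CPM in GFP and 543, 495 and 561 CPM in RfA1 cells. RfA1 replicate 2 lay below 2 of the GFP libraries, and the log2 fold change was 0.10 ± 0.083 (SE), with an adjusted p of 0.569 by edgeR (0.15 without RfA1 replicate 2). For TUBA1B the value without that library was 0.05.

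TUBA1A stood at 87.7, 92.1 and 93.6 CPM in GFP and 105, 91.9 and 108 CPM in RfA1 cells. RfA1 replicates 1 and 3 were above all GFP libraries and RfA1 replicate 2 was among them. Its log2 fold change was 0.16 ± 0.085 (SE), with the smallest adjusted p of the 10 isotypes, 0.418 by edgeR. Without RfA1 replicate 2 it was 0.23 and passed (adjusted p = 0.0373 by edgeR), in a fit in which 2636 genes, or 20.1% of those tested, passed as well.

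For alpha tubulin as a whole, the summed CPM was 2978, 3127 and 2893 in GFP and 3145, 3023 and 3166 in RfA1 cells, with RfA1 replicate 2 below GFP replicate 2. The log2 fold change of the sum was 0.05 ± 0.069 (SE), with an adjusted p of 0.737 by edgeR and a 95% interval of 0.934-fold to 1.15-fold. It was 0.07 without RfA1 replicate 2.

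TUBB stood at 1846, 1993 and 1929 CPM in GFP and 1988, 2023 and 2061 CPM in RfA1 cells. The groups overlapped only by GFP replicate 2 over RfA1 replicate 1, and the log2 fold change was 0.07 ± 0.069 (SE), with an adjusted p of 0.623 by edgeR (0.08 without RfA1 replicate 2). On the TPM scale TUBB was 1291, 1198 and 1347 in RfA1 cells, higher than each GFP library (two-sided exact permutation test, p = 0.1, the smallest that 3 libraries against 3 allow). TUBB was the 1 isotype of 10 whose TPM did not overlap, against 15.4% of all genes tested, and TPM values were higher in RfA1 libraries over all tested genes as well, by a median of 0.055 on the log2 scale.

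TUBB4B stood at 587, 679 and 650.2 CPM in GFP and 596, 720.2 and 577 CPM in RfA1 cells. RfA1 replicate 2 was the highest of all 6 libraries and RfA1 replicate 3 the lowest, and the log2 fold change was -0.02 ± 0.097 (SE), with an adjusted p of 0.948 by edgeR. TUBB6 was likewise highest in RfA1 replicate 2, at 74.7, 96.0 and 90.7 CPM in GFP and 84.9, 106 and 82.0 CPM in RfA1 cells, with a log2 fold change of 0.06 ± 0.12 (SE) and an adjusted p of 0.829 by edgeR. Without RfA1 replicate 2 the log2 fold change was -0.12 for TUBB4B and -0.06 for TUBB6, the latter reversed in direction.

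TUBB2A stood at 72.9, 97.3 and 98.6 CPM in GFP and 69.5, 100.5 and 72.8 CPM in RfA1 cells. The 6 values fell at 2 levels that did not follow the groups: GFP replicate 1 and RfA1 replicates 1 and 3 were low, GFP replicates 2 and 3 and RfA1 replicate 2 high. Its spread between libraries of a group was the largest of the 10 isotypes, a biological coefficient of variation of 12.7% against 7.28% for TUBB, and the log2 fold change was -0.15 ± 0.15 (SE), with an adjusted p of 0.649 by edgeR. Without RfA1 replicate 2 it was -0.33 and passed (adjusted p = 0.0316 by edgeR), against the 20.1% of all genes that passed in that fit. TUBB2B stood at 157, 210.1 and 190 CPM in GFP and 180.4, 226 and 163 CPM in RfA1 cells, again highest in RfA1 replicate 2, with a log2 fold change of 0.03 ± 0.13 (SE) and an adjusted p of 0.928 by edgeR. For TUBB2B it was -0.11 without RfA1 replicate 2. The sum of TUBB2A and TUBB2B, which does not depend on how reads were divided between them, gave -0.02 ± 0.13 (SE, 95% interval 0.803-fold to 1.20-fold, adjusted p = 0.944 by edgeR), and -0.18 without RfA1 replicate 2.

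TUBB4A stood at 44.1, 52.7 and 48.2 CPM in GFP and 47.1, 46.1 and 40.5 CPM in RfA1 cells, with a log2 fold change of -0.12 ± 0.10 (SE) and an adjusted p of 0.588 by edgeR. TUBB3 stood at 10.1, 10.9 and 10.8 CPM in GFP and 10.2, 12.95 and 8.95 CPM in RfA1 cells. RfA1 replicates 2 and 3 lay on either side of all GFP values of TUBB3, and its log2 fold change was 0.02 ± 0.15 (SE), with an adjusted p of 0.963 by edgeR. Both were -0.14 without RfA1 replicate 2.

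For beta tubulin as a whole, the summed CPM was 2791, 3139 and 3017 in GFP and 2976, 3234 and 3005 in RfA1 cells. The groups overlapped, and the log2 fold change of the sum was 0.04 ± 0.075 (SE), with an adjusted p of 0.806 by edgeR and a 95% interval of 0.92-fold to 1.15-fold. Without RfA1 replicate 2 it was 0.005, and without GFP replicate 1 -0.005. In TPM the beta sum was 2089, 2255 and 2233 in GFP and 2320, 2348 and 2339 in RfA1 cells, which did not overlap (two-sided exact permutation test, p = 0.1, the smallest possible). The separation of the beta sum was thus present in TPM and absent in CPM scaled by TMM.

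**Figure D3:**
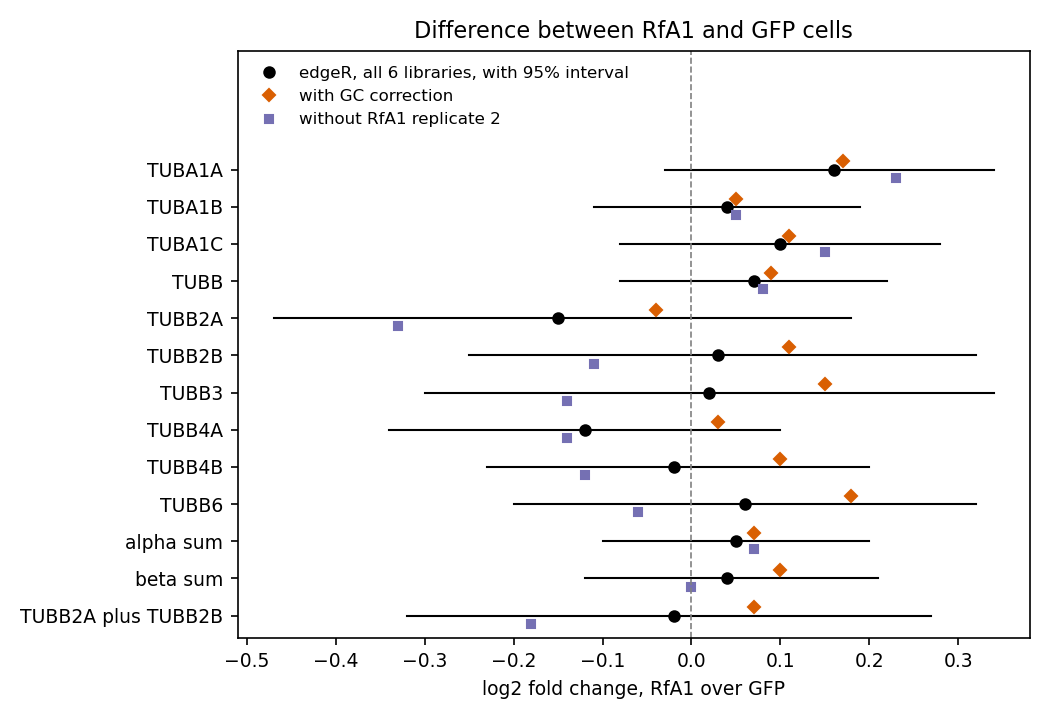
Black points give the log2 fold change of RfA1 over GFP cells (horizontal axis) of each isotype and each sum (vertical axis) from edgeR's test on all 6 libraries, with 95% intervals as lines. All intervals include 0; orange diamonds, with the GC correction, lie at or to the right of the black points, and purple squares, without RfA1 replicate 2, lie to the left for TUBB2A, TUBB2B, TUBB3, TUBB4A, TUBB4B and TUBB6 and to the right for TUBA1A and TUBA1C.

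The isotypes that moved together across libraries were alike in GC content. TUBA1A, TUBA1B, TUBA1C and TUBB have transcripts of 51.6% to 52.6% GC, and the other 6 isotypes of 57.0% to 62.0%, against a median of 49.1% over tested genes. All 6 isotypes of higher GC were lowest in replicate 1 among the GFP libraries, and 5 of the 6 were highest in replicate 2 among the RfA1 libraries (all but TUBB4A). Of the 4 isotypes of lower GC, 2 were also lowest in GFP replicate 1 (TUBA1A and TUBB), 0 were highest in RfA1 replicate 2 and 3 were lowest there (TUBA1A, TUBA1B and TUBA1C). Among the libraries of its group, GFP replicate 1 is where high-GC genes as a whole stood lowest, and RfA1 replicate 2 where they stood highest. All 6 isotypes of higher GC are beta genes, and 3 of the 4 of lower GC are alpha genes. GC content and tubulin family therefore cannot be fully told apart here, and the cause of these patterns was not tested.

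When each library was corrected for GC content, standard errors were smaller for all 10 isotypes. Of the log2 fold changes, 9 of 10 were above 0, with a median of 0.10, against -0.0067 over all genes. High-GC genes stood at -0.085, 0.29 and 0.18 relative to low-GC genes in GFP replicates 1 to 3 (log2). In RfA1 replicates 1 to 3 the values were -0.25, 0.21 and -0.33, so the trend is partly confounded with the groups. TUBB2A moved from -0.15 to -0.04, TUBB4B from -0.02 to 0.10 and TUBB4A from -0.12 to 0.03. The alpha genes hardly moved: TUBA1A from 0.16 to 0.17, TUBA1B from 0.04 to 0.05 and TUBA1C from 0.10 to 0.11. By adjusted p 0 of 10 isotypes passed with the correction. At an unadjusted p of 0.05 there were 2, TUBA1A (adjusted p = 0.224 by edgeR) and TUBB6 (log2 fold change 0.18, adjusted p = 0.192 by edgeR), against 16.0% of all genes. The corrected log2 fold changes were 0.07 for the alpha sum and 0.10 for the beta sum (adjusted p = 0.588 and 0.40 by edgeR).

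**Figure D4:**
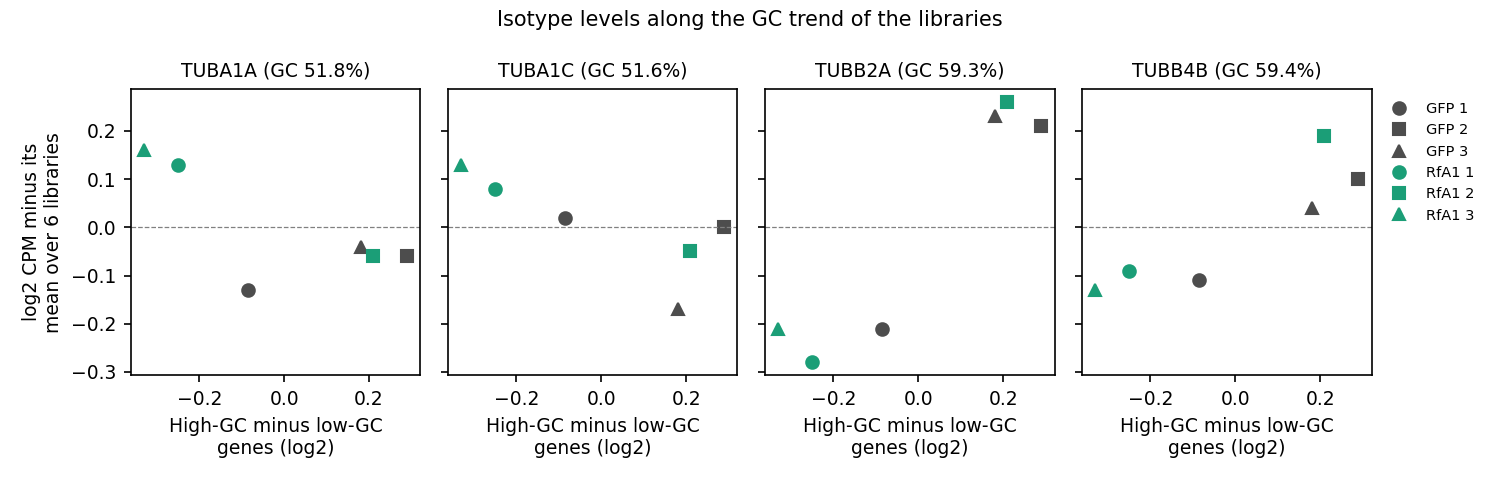
Each point is a library: the horizontal axis gives how far high-GC genes stood above low-GC genes in it (log2), the vertical axis the log2 CPM of the isotype minus its mean over the 6 libraries, with GFP in grey and RfA1 in green. TUBB2A and TUBB4B, with 59.3% and 59.4% GC, are high in the 3 libraries on the right, RfA1 replicate 2 among them, and low in the 3 on the left, whereas TUBA1A and TUBA1C are highest in RfA1 replicates 1 and 3.

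The isotype composition was the same in rank order of the leading genes in both groups. In RfA1 cells TUBA1B made up 82.1% ± 0.962 of the alpha TPM, TUBA1C 14.6% ± 0.789 and TUBA1A 3.25% ± 0.19 (SD, n = 3). TUBB made up 54.8% ± 3.38 of the beta TPM and TUBB4B 29.4% ± 1.83. The share of TUBB was 54.8%, 52.1% and 52.5% in GFP replicates 1 to 3 and 55.7%, 51.0% and 57.6% in RfA1 replicates 1 to 3, so that the RfA1 libraries lay on both sides of the GFP ones. For 0 of the 10 isotypes were the shares of the groups free of overlap. The smallest p for a share was 0.2, for TUBA1A, TUBA1B, TUBA1C and TUBB2A (two-sided exact permutation test, adjusted p = 0.5 over 10 isotypes by Benjamini-Hochberg), and the smallest that the design allows is 0.1. TUBA1B differed by -0.999 percentage points, TUBB by 1.65 and TUBB4B by -1.07. These differences depended on single libraries: without RfA1 replicate 2 they were -1.49, 3.52 and -2.09 percentage points, and without RfA1 replicate 3 -0.528, 0.234 and -0.325. Without RfA1 replicate 2, 6 of the 10 shares did not overlap, where the TPM of 53.8% of all genes tested did not overlap either, and without GFP replicate 1 it was 3 of 10, against 33.7% of all genes. Without each of the other 4 libraries it was 0 or 1 of 10, against 19.6% to 20.6% of all genes. Groups with fewer libraries overlap less often by construction. The percentages over all genes are of TPM, an unlike measure to shares, and the shares within a family depend on each other through their common total.

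Within the TUBB2A and TUBB2B pair, TUBB2A took 36.2%, 36.1% and 38.8% of the TPM in GFP and 32.0%, 35.2% and 35.4% in RfA1 cells. The RfA1 libraries were all lower (two-sided exact permutation test, p = 0.1, the smallest possible), a difference of -2.86 percentage points between means of 37.1% ± 1.54 and 34.2% ± 1.91 (SD, n = 3), and the nearest values of the groups, 36.1% and 35.4%, were close. This share was examined after the values were seen, and it rests on the estimated division of reads between the pair. The ratio of alpha to beta TPM was 1.41, 1.31 and 1.26 in GFP and 1.41, 1.22 and 1.42 in RfA1 cells, with group means of 1.32 ± 0.0777 and 1.35 ± 0.111 that did not differ beyond the spread (two-sided exact permutation test, p = 0.9). By summed estimated counts it was 1.01 and 1.02 (p = 1.0 in the same exact test).

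**Figure D5:**
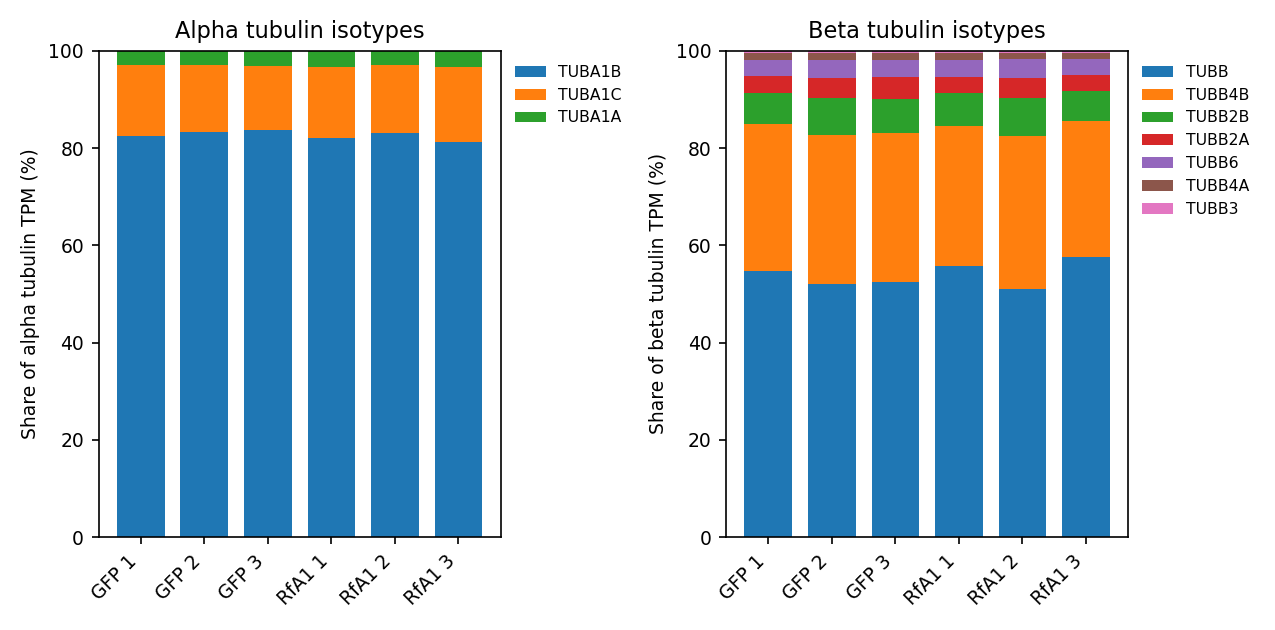
Stacked bars give the share of each isotype in the alpha (left) or beta (right) tubulin TPM of each library, in percent. TUBA1B fills 81.2% to 83.6% of every alpha bar, and TUBB and TUBB4B together over 80% of every beta bar; the TUBB segment is tallest in RfA1 replicate 3 (57.6%) and shortest in RfA1 replicate 2 (51.0%).

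The genes that make, fold, modify and bind tubulin dimers, with related tubulins outside the isotypes above, were looked at by lists of 99 genes. Of these, 83 were in the table and 71 were tested. By adjusted p, 0 of the 71 differed between RfA1 and GFP cells in edgeR's test, and 0 in DESeq2. At an unadjusted p of 0.05 there were 13, 8 higher and 5 lower with RfA1, or 18.3% against 13.9% of all genes. The CPM of the groups did not overlap for 12 genes, 6 higher and 6 lower, or 16.9% against 17.9% of all genes. The medians of single lists compare with a median log2 fold change of -0.0024 over all genes tested, or -0.0067 with the GC correction. Counts of list genes above 0 are given without the share over all genes.

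Of the chaperonin CCT and its cofactors, 11 genes were tested and 10 had a log2 fold change above 0, with a median of 0.11. CCT8 stood at 279, 242 and 238 CPM in GFP and 305, 279 and 315 CPM in RfA1 cells, overlapping by GFP replicate 1 (log2 fold change 0.24, adjusted p = 0.294 by edgeR). CCT6A and TCP1, further subunits of the ring, had log2 fold changes of 0.18 and 0.17 (adjusted p = 0.342 and 0.369). The CCT transcripts named are of low GC (43.1% to 44.1%), and with the GC correction the values were 0.16 for CCT8, 0.11 for CCT6A and 0.09 for TCP1, and the median of the list was 0.069.

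The prefoldin list holds the subunits of the complex that hands unfolded tubulin to CCT, and related proteins. Of this list, 9 genes were tested and 6 were above 0, with a median of 0.071, which was 0.059 with the GC correction. PFDN4 stood at 20.5, 20.1 and 17.4 CPM in GFP and 27.9, 25.3 and 28.9 CPM in RfA1 cells, with no overlap between the groups. Its log2 fold change was 0.50 ± 0.11 (SE), with an adjusted p of 0.167 by edgeR, and 0.36 with the GC correction (adjusted p = 0.0546). VBP1, the subunit also called prefoldin 3, had 0.29 (adjusted p = 0.278), again with RfA1 libraries all above the GFP ones, and 0.17 with the GC correction. Among 9 cofactors and partners of dimer assembly, 3 were above 0, with a median of -0.053, which was -0.089 with the GC correction. Among them ARL2, a small GTPase that acts with the cofactors, had a log2 fold change of -0.22 and TBCA, which holds free beta tubulin, -0.14 (adjusted p = 0.415 and 0.447 by edgeR). With the GC correction they moved in opposite ways, to -0.08 for ARL2 and -0.30 for TBCA.

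Of the autoregulation list, TTC5 and its partners in the CCR4-NOT complex, 12 genes were tested and 9 were above 0, with a median of 0.10, which was 0.016 with the GC correction. The deadenylase subunits CNOT6 and CNOT6L had log2 fold changes of 0.27 and 0.28 (adjusted p = 0.324 and 0.345 by edgeR), or 0.16 and 0.14 with the GC correction, and their groups overlapped. In the tyrosination cycle, 5 genes were tested and 2 were above 0, with a median of -0.069, which was 0.03 with the GC correction. TTL, the ligase that restores the tyrosine at the end of alpha tubulin, stood at 68.6, 62.7 and 64.7 CPM in GFP and 78.1, 73.3 and 74.1 CPM in RfA1 cells, without overlap (log2 fold change 0.20, adjusted p = 0.32 by edgeR). KIAA0895L lay the other way, at -0.21 (adjusted p = 0.347), also without overlap. With the GC correction TTL was 0.12 and KIAA0895L -0.09.

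Of the enzymes of the other tail modifications and of acetylation, 15 were tested, 4 were above 0 and the median was -0.12, which was -0.04 with the GC correction. TTLL11, a polyglutamylase, stood at 21.5, 17.1 and 21.5 CPM in GFP and 13.9, 15.8 and 14.7 CPM in RfA1 cells, all lower with RfA1 (log2 fold change -0.44, adjusted p = 0.234 by edgeR). SIRT2, a deacetylase of alpha tubulin, had -0.24 (adjusted p = 0.293). With the GC correction these were -0.34 and -0.12. Of the stathmins, which bind free dimers, 2 were tested, STMN3 at -0.29 and STMN1 at 0.09 (adjusted p = 0.349 and 0.636), or -0.13 and 0.05 with the GC correction.

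The related tubulins outside the 10 isotypes were part of the lists counted above and were described in the same way. The alpha genes TUBA4A and TUBA8 had log2 fold changes of 0.06 and 0.01 (adjusted p = 0.873 and 0.975 by edgeR), and the beta genes TUBB8B and TUBB8, which are close copies of other family members, -0.18 and -0.13 (adjusted p = 0.484 and 0.876). With the GC correction TUBA4A was 0.16, TUBA8 0.09, TUBB8B -0.08 and TUBB8 -0.10. TUBG2, a gamma tubulin of the nucleating ring, had -0.26 and TUBE1, an epsilon tubulin of centrioles, 0.27 (adjusted p = 0.332 and 0.354), or -0.16 and 0.16 with the GC correction, and for both the groups overlapped.

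Genes whose pattern over the 6 libraries was most like that of the sums were picked by the root mean square difference of their log2 deviations, over 6534 genes whose mean log2 CPM was 5 or more. For the alpha sum these were GGCX, IDH1 and HMGB1, at 0.0139, 0.0174 and 0.0194, where the alpha sum itself deviated by 0.0471. For the beta sum they were NOLC1, PABPC4 and NUP62, at 0.0212, 0.0219 and 0.022, against a deviation of 0.0661. These are the nearest of 6534 genes over 6 libraries, so small differences follow from the selection. Whether these genes share more than this pattern with the sums was not tested.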

How the data were processed

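RNA-seq was performed on 3 GFP and 3 RfA1 libraries of HEK-293T cells. The authors deposited 1 table of 16655 genes with Gene IDs and symbols. It holds the estimated counts per gene and library, without normalization, the deposited TPM, corrected for length and scaled to the same total, and the deposited FPKM, which were used only to derive the length behind each value. The authors' averages over replicates are also in the table and were not used. The submitters' processing notes name HISAT and GRCh38.p13; the counting tool, annotation and strandedness are not given in the sources used here. Groups and replicate numbers come from the labels.

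Estimated counts were rounded. Genes were kept by filterByExpr (minimum count 10, minimum total 15; 13002 genes), normalized by TMM and compared with the robust quasi-likelihood test of edgeR 4.0.16 in R 4.3.3, two-sided, with Benjamini-Hochberg adjustment over all genes tested and a threshold of 0.05. Sums replaced their rows in separate fits. Shares and ratios of TPM were compared by exact permutation tests over libraries (scipy 1.17.1). Coding sequences, GC content and overlaps came from GENCODE release 29 on GRCh38, with 98.3% of genes matched. The GC correction is a spline (5 degrees of freedom) per library, entered as an offset. Alternatives were DESeq2 1.42.0, limma 3.58.1 on log2(TPM + 1), other normalizations and filters, the GC correction, the replicate number as a block, other rows in the sums and shares, and each library left out in turn. The scripts were tested on simulated data.

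The isotypes, lists and alternatives were chosen with earlier results of these data known. Genes named were all 10 isotypes, the 2 genes of each list with the smallest unadjusted p (3 of the CCT list), and the 3 genes most like each sum. The model of the counts takes in their counting error. Plasmid transcripts were not analysed here, and the ends of the alpha coding sequences are not reported here.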

Additional observations from a re-analysis of the deposited data

How the results depend on the processing

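The 27 results were each recomputed under 3 to 16 alternative settings. The recomputed values share libraries and settings, so they are not independent. Together this made 311 recomputed values. Of these, 270 kept direction and side of the threshold or moved by less than the spread, 33 reversed in direction and 8 changed otherwise; the cause was not tested except where noted. With the GC correction, with and without the replicate block, TUBB4A was 0.03 and 0.03, TUBB4B 0.10 and 0.10 and the sum of TUBB2A and TUBB2B 0.07 and 0.07 on the log2 scale. With limma-trend on log2(TPM + 1), TUBB4B was 0.04 and the sum of TUBB2A and TUBB2B 0.02. None of these passed the threshold.

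With each library left out in turn, log2 fold changes ran from -0.11 to 0.13 for TUBB2B, from -0.14 to 0.13 for TUBB3, from -0.12 to 0.04 for TUBB4B, from -0.06 to 0.14 for TUBB6, from -0.005 to 0.08 for the beta sum and from -0.18 to 0.06 for the sum of TUBB2A and TUBB2B. The lowest value came without RfA1 replicate 2 in each case except the beta sum, where it came without GFP replicate 1. The isotypes called ran from 0 to 2, and the 2 were TUBA1A and TUBB2A without RfA1 replicate 2, where 20.1% of all genes passed. Differences of shares ran from 0.234 to 3.52 percentage points for TUBB, from -2.09 to -0.325 for TUBB4B and from -1.49 to -0.528 for TUBA1B. They ran from -0.412 to 0.368 percentage points for TUBB2B, from -0.0367 to 0.023 for TUBB3 and from -0.0938 to 0.173 for TUBB6. Shares without overlap ran from 0 to 6. The 6 came without RfA1 replicate 2, where the TPM of 53.8% of all genes tested did not overlap either. The difference in the ratio of alpha to beta TPM ran from -0.011 to 0.088.

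With the replicate number as a block, edgeR called 625 genes (4.81%) against 10, but 0 of the 10 isotypes. Of the lists, 4 of 71 genes passed with the block (5.63%): PFDN4, VBP1, TTLL11 and STMN3. It changed no other call. The labels share only the numbers: deviations of same-numbered libraries correlated by 0.166, 0.321 and -0.143, and GFP replicate 1 correlated best with RfA1 replicate 3 (0.348). The GC correction called 189 genes and DESeq2 33, with 0 isotypes each. The self-test on simulated counts did not cover fold changes under 1.5.

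The limits are the 3 libraries a group, the estimated division of reads among near-identical isotypes, and the GC trend. That trend separated RfA1 replicate 2 from the other RfA1 libraries and GFP replicate 1 from the other GFP libraries. It is partly confounded with RfA1 against GFP, and without RfA1 replicate 2 the groups do not overlap in it.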
